A study of Mus musculus with 18 samples.

Results

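Transcripts of 10 genes of the bone morphogenetic protein (BMP) pathway were examined, of 43432 genes counted in each of the deposited tables. The genes were chosen by name: the receptors Bmpr1a and Bmpr2, the signal-carrying Smads Smad1, Smad5 and Smad4, the inhibitory Smads Smad6 and Smad7, and the target genes Id1, Id2 and Id3. All 10 were found by Ensembl identifier and all 10 passed the filter on low counts in each comparison.

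BMP ligands bind a type II receptor such as Bmpr2, which phosphorylates a type I receptor such as Bmpr1a; the type I receptor then phosphorylates Smad1 and Smad5. These enter the nucleus with Smad4 and switch on target genes, among them the Id genes, whose products hold back basic helix-loop-helix transcription factors, and Smad6 and Smad7, which feed back on the receptors. In the intestine BMP signalling is known to be low at the crypt base, where stem cells lie, and higher toward the villus, where it favours differentiation.

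The study compared intestinal stem cells with a conditional knock-out of Dlg1, a scaffold protein of the cell cortex, with wild-type stem cells. Each library came from 5000 to 10000 sorted cells of mice aged 8 to 16 weeks, and all groups, controls included, had received tamoxifen 48 hours (called 2 days here) or 14 days before dissection. There were 4 wild-type and 4 knock-out libraries at 2 days and 5 of each at 14 days, 18 in all. The labels used here do not name the Cre driver or its promoter, the sorting marker, or whether each replicate was a separate animal, so each p-value reflects the scatter of these libraries alone, and that scatter may be technical. At 2 days the knock-out columns are named Dmin; taking this for Dlg1 minus is a reading on which every genotype statement at that time depends. Libraries are numbered by their place in the table within a group, and the numbers pair nothing.

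The libraries held 14.8 to 40.5 M counts in the 2 day table and 11.1 to 15.7 M in the 14 day table. One library stood apart at each time. Wild-type library 1 at 2 days was the deepest, had the highest mitochondrial share (49.1%) and the fewest genes detected (16073), and in knock-out library 5 at 14 days 1 gene model outside the mitochondrial genome took 35.3% of the counts. Some results are given with and without one of these libraries. Others are given with all libraries only, among them the search for genes most like the Id genes. Dlg1 itself, counted over the whole gene, averaged 70.3 ± 10.8 (SD, n = 4) CPM (the count scaled to the library's size) in wild type and 54.0 ± 9.97 (SD, n = 4) in knock-out at 2 days, and 63.3 ± 10.4 (SD, n = 5) and 55.6 ± 19.8 (SD, n = 5) at 14 days. The groups overlapped at both times, at 57.1 to 82.4 CPM against 45.6 to 68.4 CPM at 2 days and 54.0 to 75.1 CPM against 36.9 to 85.4 CPM at 14 days, where knock-out library 5, the library that stood apart, lay above every wild-type library and so went against its label. Reads outside the deleted part still count here and the labels do not name the deleted exons, so these values do not settle the genotype of a library, and the genotypes below are those of the labels. Stem cell markers such as Lgr5 and Olfm4 were present in every library. Over all libraries the summed level of 7 endothelial markers was 0.0656 to 6.53 CPM, with Pecam1 above 0 in each library and Cdh5, Emcn and Cldn5 at 0 in all 8 libraries at 2 days. That of 9 mesenchymal markers was 1.07 to 19.9 CPM, with Pdgfrb and Vim above 0 in each library and Dcn and Lum at 0 in all 8 at 2 days. That of 6 myeloid markers was 15.1 to 79.6 CPM, led by Itgam at up to 65.8 CPM, Cd68 at up to 25.98 CPM and Cd14 at up to 23.9 CPM. Csf1r, Adgre1 and Lyz2 of the same list reached at most 1.02, 0.953 and 1.41 CPM. The sum was 0.641 to 14.0 CPM for 11 T cell and innate lymphocyte markers and 0.814 to 5.17 CPM for 5 B and plasma cell markers. In these bulk samples, fewer cells of a type and less RNA per cell cannot be told apart.

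Sequence just before the transcription start is shown for 4 genes that moved between the tables and whose windows hold bases outside annotated exons: Smad6 and Id2, higher at 14 days, and Smad5 and Bmpr1a, lower at 14 days. Of the 10 genes, 7 matched the RefSeq table of start-site windows on GRCm38.p6, with 9 windows of 250 bases between them. Bases that the GENCODE M21 annotation of GRCm38 places in an exon were left out, so the runs differ in length. The Smad6 run (chr9:64022060-64022309, minus strand) and the Smad5 run (chr13:56702760-56703009, plus strand) reach up to the start site. The Id2 run (chr12:25096254-25096342, minus strand) and the Bmpr1a run (chr14:34502688-34502796, minus strand) end at positions -162 and -142 from it and lie in introns of longer annotated transcripts. Each is written 5′ to 3′ on the gene's strand, and capitals mark GGCGCC or GGAGCC, short motifs that Smad1 and Smad5 are known to bind, on either strand.
Smad6: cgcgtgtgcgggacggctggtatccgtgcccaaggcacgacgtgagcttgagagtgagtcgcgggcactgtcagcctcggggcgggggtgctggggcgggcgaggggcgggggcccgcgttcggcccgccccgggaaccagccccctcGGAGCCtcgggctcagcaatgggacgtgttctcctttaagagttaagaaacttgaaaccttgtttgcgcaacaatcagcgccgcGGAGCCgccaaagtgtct
Id2: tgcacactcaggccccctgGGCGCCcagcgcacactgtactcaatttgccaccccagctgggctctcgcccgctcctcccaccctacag
Smad5: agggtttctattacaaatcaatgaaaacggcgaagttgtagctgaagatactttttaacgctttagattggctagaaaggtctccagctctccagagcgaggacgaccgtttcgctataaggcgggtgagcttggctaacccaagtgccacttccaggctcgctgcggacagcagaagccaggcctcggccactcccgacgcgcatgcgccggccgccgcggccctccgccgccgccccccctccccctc
Bmpr1a: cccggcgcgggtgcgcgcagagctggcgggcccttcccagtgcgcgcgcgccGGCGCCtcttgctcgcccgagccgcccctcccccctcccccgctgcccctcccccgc
The Smad6 run held GGAGCC in 2 places, and the Id2 and Bmpr1a runs held GGCGCC in 1 place each. These letters did not occur in the Smad5 run shown, but they did in windows of other Smad5 start sites. The window before position 56703052 held GGCGCC at -19, and that before 56703668 held GGAGCC, on either strand, at -117.

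Across the full windows GGCGCC, which is its own reverse complement, occurred in 4 of the 9 windows, against 9.59% of 32851 RefSeq windows of the same length. GGAGCC or its reverse complement GGCTCC also occurred in 4 of the 9, against 26% of all windows. CAGAC or its reverse complement GTCTG, the letters of the Smad box, occurred in 2 of the 9, 1 of Id3 and 1 of Smad5, against 42.2% of all windows. The 9 windows had a GC content of 60% to 78.8%, against a median of 52.4% over all windows, and the part of GC content in these counts was not tested. By gene, GGCGCC and GGAGCC each occurred in 4 of the 7 genes, and CAGAC in 2. Smad5 has several of the 9 windows, some of them overlapping, so the windows are not separate observations. A match describes the letters of a window and nothing more.

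The first comparison asked whether loss of Dlg1 changed these genes 2 days after tamoxifen. In edgeR's quasi-likelihood test, adjusted by Benjamini-Hochberg over 13031 genes, none of the 10 was called between knock-out and wild type, and 0% of all genes were called. Of the 10, 5 had a log2 fold change above 0 and 5 below 0, and 1 had an unadjusted p under 0.05, against 4.91% of all genes. The median log2 fold change was -0.05 over the 10 genes and 0.01 over all genes. DESeq2 and limma voom also called none of the 10.

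Bmpr1a, the type I receptor (chr14:34410734-34503341 on GRCm38, minus strand), read 299, 161, 174 and 188 CPM in the 4 wild-type libraries and 152, 132, 153 and 144 CPM in the 4 knock-out libraries at 2 days. Over 290 bases the gene overlaps the predicted gene Gm17110 on the other strand, and whether counting used strand is not given in the sources used here. Every knock-out library was below every wild-type library, and the highest wild-type value belonged to the library that stood apart. Bmpr1a was the only gene of the 10 with no overlap, against 3.93% of all genes in either direction and 1.93% with the knock-out below. The log2 fold change was -0.50 ± 0.20 (SE), which puts the knock-out at 70.7% of the wild-type level. An exact two-sided permutation test gave p = 0.0286, the smallest that 4 against 4 libraries can give, while the edgeR p of 0.0258 became 0.866 after adjustment over all genes. Without wild-type library 1 the log2 fold change was -0.27.

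Bmpr2, the type II receptor (chr1:59763400-59879014, plus strand), read 147, 124, 112 and 128 CPM in wild type and 118, 101, 103 and 127 CPM in knock-out at 2 days. The knock-out libraries lay in the lower part of the range and overlapped the wild type. Its log2 fold change was -0.19 ± 0.15 (SE), with an adjusted edgeR p of 0.886.

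Among the signal-carrying Smads, Smad1 (chr8:79338395-79399518, minus strand) read 190, 83.1, 86.7 and 94.7 CPM in wild type and 94.0, 110, 90.4 and 120 CPM in knock-out at 2 days. Wild-type library 1 was again the highest of all, and the other 3 wild-type libraries lay below the knock-out range or in its lower part. The log2 fold change was -0.13 ± 0.25 (SE) with all libraries and 0.23 without wild-type library 1, so its direction rested on that library. Smad5 (chr13:56703010-56742377, plus strand) overlaps the gene Gm27301 on the same strand over 100 bases. It read 74.9, 70.1, 65.9 and 75.2 CPM in wild type and 77.0, 56.2, 52.0 and 52.1 CPM in knock-out. Here 3 knock-out libraries fell below every wild-type library and the fourth lay above them all. Its log2 fold change was -0.27 ± 0.17 (SE), with an adjusted edgeR p of 0.866. Smad4, the partner shared with TGF-beta signalling (chr18:73639009-73703780, minus strand), read 139, 138, 151 and 152 CPM in wild type and 155, 117, 130 and 130 CPM in knock-out, the same pattern of 3 below and 1 above, at -0.12 ± 0.14 (SE).

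Of the inhibitory Smads, Smad6 (chr9:63953076-64022059, minus strand) was counted 2, 47, 10 and 6 times in wild type and 22, 31, 18 and 24 times in knock-out at 2 days, which is 0.0857, 2.74, 0.685 and 0.384 CPM against 1.28, 1.02, 1.18 and 1.72 CPM. The wild-type libraries spanned the whole knock-out range, and the log2 fold change of 0.42 was smaller than its SE of 0.89; it was 0.02 without wild-type library 1 and 1.77 without wild-type library 2. Smad7 (chr18:75367529-75395935, plus strand) read 7.79, 17.0, 15.3 and 11.6 CPM in wild type and 11.6, 19.6, 17.98 and 22.0 CPM in knock-out. Of the knock-out libraries 3 were above every wild-type library. The log2 fold change was 0.46 ± 0.30 (SE), with an exact permutation p of 0.200 and an adjusted edgeR p of 0.866. With 1 library left out it was 0.28 to 0.63.

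The Id genes are the usual readout of BMP activity. Id1 (chr2:152736251-152737410, plus strand) read 12.4, 9.79, 5.204 and 3.46 CPM in wild type and 6.68, 11.04, 12.1 and 17.4 CPM in knock-out at 2 days. The groups overlapped, with 1 knock-out library above all wild-type libraries. The log2 fold change of 0.62 ± 0.43 (SE) was the highest of the 10. It had an exact permutation p of 0.229 and an adjusted edgeR p of 0.866, and was 0.36 to 0.93 with 1 library left out. Id2 (chr12:25093799-25097140, minus strand) read 13.5, 9.09, 8.42 and 6.78 CPM against 6.51, 12.2, 9.78 and 12.1 CPM, at 0.11 ± 0.33 (SE). Id3 (chr4:136143497-136145755, plus strand) read 88.8, 24.8, 23.6 and 23.0 CPM in wild type and 34.6, 45.4, 34.7 and 47.4 CPM in knock-out. All 4 knock-out libraries lay above wild-type libraries 2, 3 and 4 and below wild-type library 1. With all libraries the log2 fold change was 0.02 ± 0.41 (SE), and without wild-type library 1 it was 0.76 with an adjusted edgeR p of 0.709.

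**Figure D1:**
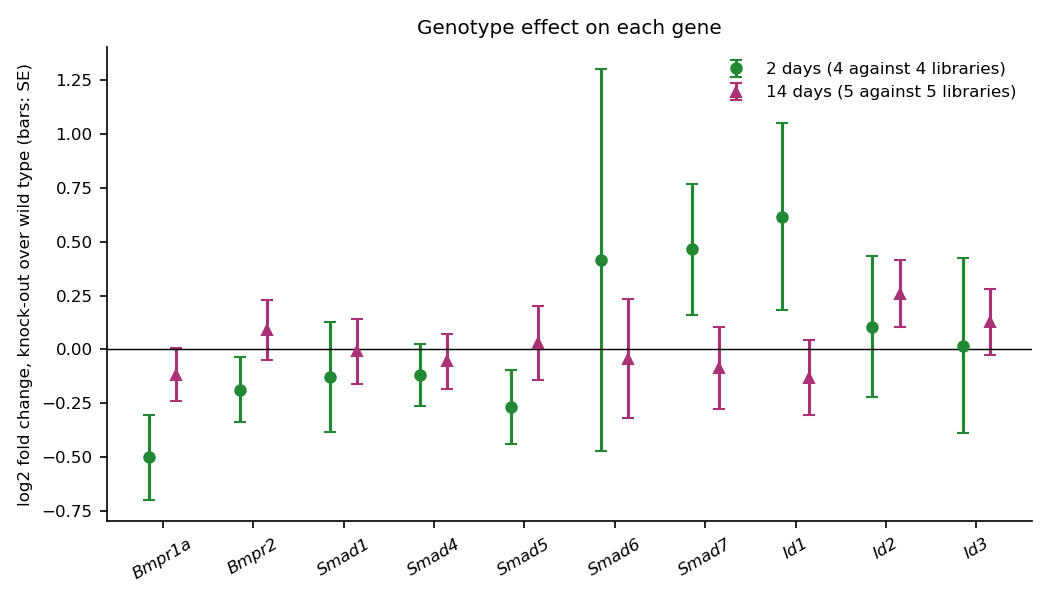
Log2 fold change of knock-out over wild type (vertical axis) for each of the 10 genes at 2 days (circles, 4 against 4 libraries) and 14 days (triangles, 5 against 5); bars are standard errors from edgeR. Bmpr1a at 2 days, at -0.50 ± 0.20, lies farthest from 0 for its error, and none of the values passed the adjusted threshold.

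At 14 days the question was the same, with 5 libraries a side and 13991 genes tested. None of the 10 genes was called by edgeR, DESeq2 or limma voom, and edgeR called 0% of all genes. None of the 10 had an unadjusted p under 0.05, against 3.99% of all genes, and none had groups that did not overlap, against 0.55% of all genes (0.343% lower and 0.207% higher in knock-out). The log2 fold changes lay between -0.13 for Id1 and 0.26 for Id2, with a median of -0.03 over the 10 genes.

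Bmpr1a at 14 days read 90.9, 98.4, 94.5, 109 and 94.6 CPM in wild type and 88.7, 76.1, 104, 86.7 and 88.3 CPM in knock-out. Of the knock-out libraries 4 were below every wild-type library and the fifth lay within their range. The log2 fold change was -0.12 ± 0.12 (SE), with an exact permutation p of 0.143. Bmpr2 read between 35.2 and 46.3 CPM in wild type and between 34.1 and 49.6 CPM in knock-out, at 0.09 ± 0.14 (SE). The receptors thus had opposite signs at this time, neither beyond the spread between libraries. The 14 day columns carry the letter B (2 libraries per genotype) or J (3 per genotype), whose meaning is not given in the sources used here. For Bmpr1a the knock-out differed from wild type by -0.20 among the B libraries and -0.10 among the J libraries, as differences of mean log2(CPM + 0.5). Of the 10 genes 5 had the same sign in both. Among those that did not, Id1 stood at 0.19 in B and -0.42 in J, and Smad5 at -0.32 and 0.19.

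Of the signal-carrying Smads at 14 days, Smad1 read 73.0 to 111 CPM in wild type and 65.1 to 93.9 CPM in knock-out, at -0.01 ± 0.15 (SE). Smad5 read 30.4 to 39.4 CPM against 22.3 to 42.1 CPM, at 0.03 ± 0.17 (SE), and Smad4 read 91.4 to 121 CPM against 93.9 to 114 CPM, at -0.06 ± 0.13 (SE). The groups overlapped for all 3. The inhibitory Smads were as close: Smad6 read 3.42 to 6.39 CPM against 3.58 to 5.85 CPM, and Smad7 read 12.9 to 17.1 CPM against 9.53 to 16.8 CPM.

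Id1 at 14 days read 99.96, 119, 124, 97.0 and 120 CPM in wild type and 116, 133, 69.0, 88.9 and 96.7 CPM in knock-out. The knock-out libraries spread more widely, with 3 below and 1 above all wild-type libraries. Id2 read 59.5, 47.0, 57.9, 69.5 and 44.6 CPM in wild type and 83.9, 64.5, 63.6, 62.4 and 55.1 CPM in knock-out. Of the knock-out libraries 1 was above all wild-type libraries and none was below them, and the log2 fold change was 0.26 ± 0.16 (SE), with an exact permutation p of 0.175 and an adjusted edgeR p of 0.957. Id3 read 229, 267, 202, 248 and 209 CPM in wild type and 324, 220, 232, 234 and 238 CPM in knock-out, with knock-out library 1 alone above the wild-type range.

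Averaged over both times in a fit of all 18 libraries, none of the 10 genes was called by edgeR, DESeq2 or limma voom, against 0.00647% by edgeR of the 15458 genes tested, which is 1 gene. Bmpr1a had the smallest p of the 10, with the knock-out at 80.2% of the wild-type level (-0.32 ± 0.12, SE, on the log2 scale), an edgeR p of 0.0113 and an adjusted p of 0.8293. It was 1 gene of the 10 with an unadjusted p under 0.05, against 5.81% of all genes, and its log2 fold change was -0.20 without wild-type library 1 at 2 days.

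The difference of the genotype effect between times, 14 days minus 2 days, was tested in the same fit. None of the 10 genes was called by edgeR, DESeq2 or limma voom, against 0% of all genes by edgeR, and none had an unadjusted edgeR p under 0.05, against 5.96% of all genes. Id1 had the value farthest from 0, -0.75 ± 0.41 (SE), with an adjusted edgeR p of 0.838, and -1.07 to -0.50 with 1 library left out. Its genotype effect was above 0 at 2 days and below 0 at 14 days. Smad7 had the same order of signs at -0.57 ± 0.35 (SE), and was -0.73 to -0.37 with 1 library left out. The 14 day effect on Id1 was above 0 among the B libraries, at 0.19, and below 0 among the J libraries, at -0.42. Bmpr1a, at 0.37 ± 0.23 (SE), was less far below wild type at 14 days than at 2 days, with an adjusted edgeR p of 0.857, and was 0.14 without wild-type library 1 at 2 days.

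**Figure D2:**
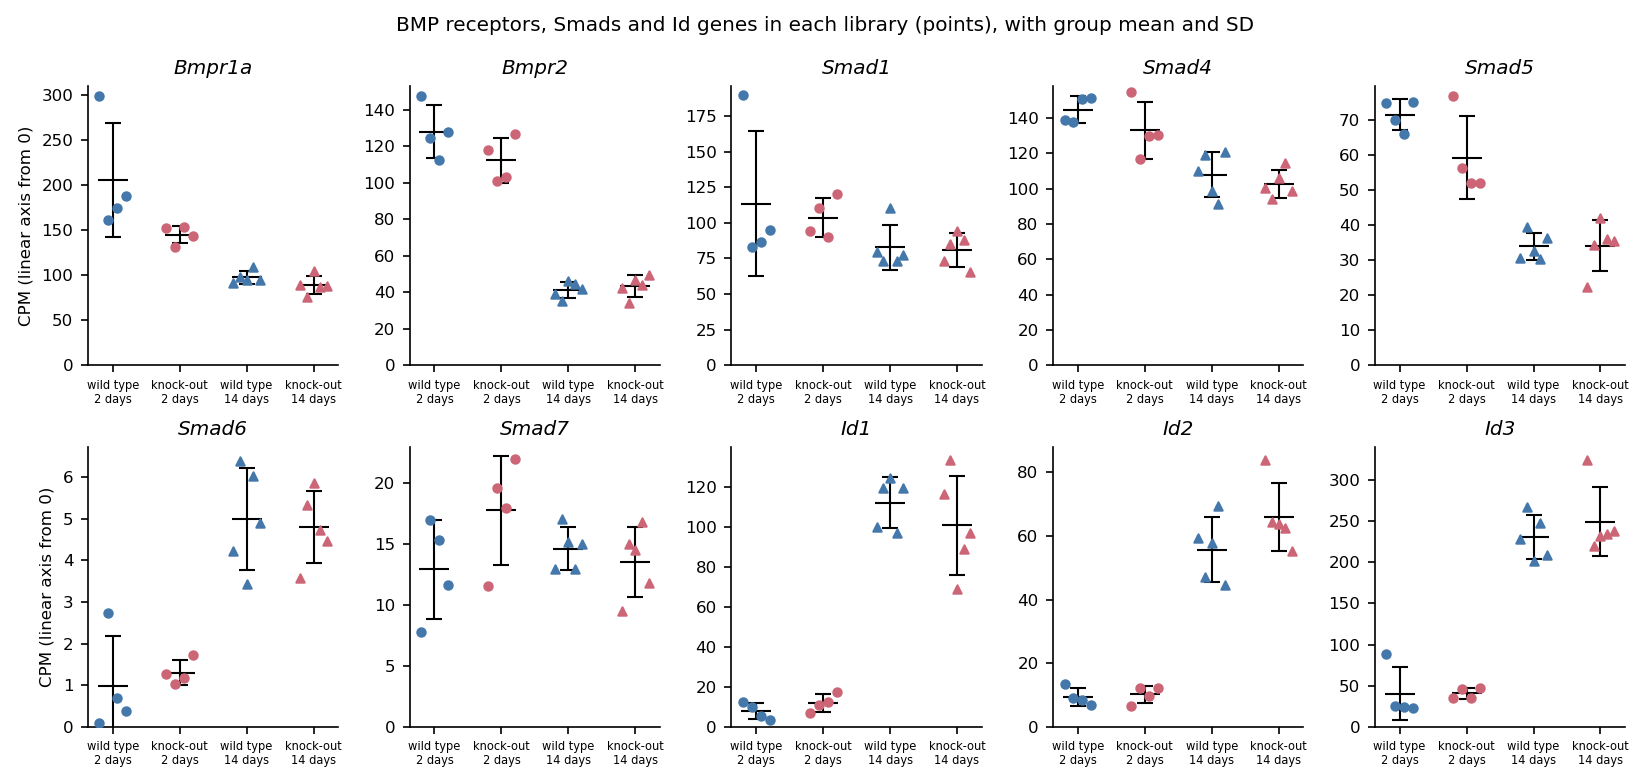
CPM (vertical axes, linear from 0) of each of the 10 genes in every library, by genotype and time; points are libraries, and bars are the group mean and SD of 4 libraries at 2 days and 5 at 14 days. Id1, Id2, Id3 and Smad6 lie higher and Bmpr1a, Bmpr2, Smad4 and Smad5 lower in the 14 day groups, while wild type and knock-out overlap within each time except for Bmpr1a at 2 days.

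The largest differences in these genes lay between the 2 tables. The time after tamoxifen and the table cannot be told apart, since each time was deposited as a table of its own and may be another run or cohort. The mitochondrial share of counts was 26.1% to 49.1% at 2 days and 6.21% to 26.3% at 14 days, and 16073 to 18750 genes were detected per library at 2 days against 20398 to 26773 at 14 days; the part of either in these differences was not tested. In wild type, 8 of the 10 genes were called by edgeR between 14 and 2 days, against 53.4% of all genes: 4 were higher, against 27.7%, and 4 lower, against 25.7%. In knock-out again 8 of the 10 were called, against 50.4% of all genes, 4 higher against 25.3% and 4 lower against 25.1%. The same 4 genes were higher (Id1, Id2, Id3 and Smad6) and the same 4 lower (Bmpr1a, Bmpr2, Smad4 and Smad5) in both genotypes, and Smad1 and Smad7 were called in neither. In each genotype the libraries of the 2 times did not overlap for these 8 genes, against 43% of all genes in wild type (22.4% higher and 20.6% lower) and 43.1% in knock-out (21.3% higher and 21.7% lower). With an unadjusted edgeR p under 0.05 there were 9 of the 10 in wild type, Smad1 being the ninth, against 58.6% of all genes, and 8 in knock-out, against 55.8%. With at least 50.4% of all genes called, the count of 8 is read against that background. Of all calls in knock-out 50.1% were higher, and 60.4% with no filter on low counts. The direction of the 8 genes held under each alternative scaling and tool tried, including upper-quartile scaling, which moved the median of all genes by 0.13 on the log2 scale in each genotype.

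The Id genes rose together. Id1 averaged 7.71 ± 4.10 CPM (SD, n = 4) at 2 days and 112 ± 12.6 CPM (SD, n = 5) at 14 days in wild type, and 11.8 ± 4.42 (SD, n = 4) and 101 ± 24.7 CPM (SD, n = 5) in knock-out. Every 14 day library was above every 2 day library. This is 14.4-fold in wild type, a log2 fold change of 3.85 ± 0.33 (SE) with an adjusted edgeR p of 6.9e-09, and 8.54-fold in knock-out. Id2 rose 5.87-fold in wild type and 6.49-fold in knock-out, and Id3 rose 5.75-fold and 6.16-fold. No 2 day library of Id2 exceeded 13.5 CPM and no 14 day library was under 44.6 CPM. Without wild-type library 1 at 2 days, the library with the highest Id3 of its group, the wild-type log2 fold change of Id3 was 3.27 in place of 2.52.

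Smad6 rose 5.14-fold in wild type, from 0.973 ± 1.20 CPM (SD, n = 4) to 4.998 ± 1.23 CPM (SD, n = 5), and 3.69-fold in knock-out, from 1.30 ± 0.301 CPM (SD, n = 4) to 4.80 ± 0.864 CPM (SD, n = 5). Without wild-type library 1 at 2 days the wild-type log2 fold change of 2.36 ± 0.61 (SE) was 1.95, and without wild-type library 2 at 2 days it was 3.73. In CPM all 14 day libraries lay above all 2 day libraries, while the raw counts, 37 to 123 against 2 to 47, overlapped. The other inhibitory Smad, Smad7, did not pass the test in either genotype, at 0.18 ± 0.25 (SE) in wild type and -0.39 ± 0.25 (SE) in knock-out. Whether Smad6 and Smad7 differed from each other was not tested.

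Both receptors fell. Bmpr2 fell to 32.3% of its 2 day level in wild type, from 128 ± 14.6 CPM (SD, n = 4) to 41.4 ± 4.38 CPM (SD, n = 5), and to 38.7% in knock-out. Bmpr1a fell to 47.4% in wild type and 61.2% in knock-out, a smaller fall by 0.37 ± 0.23 (SE) on the log2 scale that did not pass the test of the difference. Without wild-type library 1 at 2 days the wild-type log2 fold change of Bmpr1a was -0.84 in place of -1.08, and the difference was 0.14. No library at 14 days reached the lowest library at 2 days for either receptor: the highest Bmpr1a value at 14 days was 109 CPM and the lowest at 2 days 132 CPM.

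Among the signal-carrying Smads, Smad5 fell to 47.4% of its 2 day level in wild type and 57.5% in knock-out. Smad4 fell to 74.6% in wild type, with an adjusted edgeR p of 0.0100, and to 77.1% in knock-out, with an adjusted p of 0.0222. The Smad4 call was lost with upper-quartile scaling and with no filter in both genotypes, with adjusted p-values of up to 0.113 in wild type and 0.139 in knock-out over the alternatives. In knock-out it was also lost with DESeq2's scaling, with DESeq2 itself, and without any 1 of knock-out library 1 at 2 days and knock-out libraries 2 and 5 at 14 days, with log2 fold changes of -0.29 to -0.34 in these 3. Smad1 stood at 72.7% in wild type and 78.1% in knock-out without passing the test, with adjusted p-values of 0.0733 and 0.173. Its wild-type log2 fold change of -0.46 became -0.10 without wild-type library 1 at 2 days, and passed the test without any 1 of wild-type libraries 2 and 3 at 2 days and wild-type library 3 at 14 days, at -0.57 to -0.59.

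The length of a transcript moved with the difference between the tables. Over 15334 genes with a length, Spearman's rho between merged exonic length and the log2 fold change was -0.39 in wild type and -0.37 in knock-out, as a description across genes, which share libraries and are not independent replicates. In wild type the median log2 fold change was 1.65 in the shortest decile of genes and -0.56 in the longest decile. The genes that rose here have 1160 (Id1) to 3205 (Smad6) exonic bases and the 4 that fell 3712 (Smad4) to 17983 (Bmpr2). The part of length in these results was not tested.

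Set against genes of its own decile of length, each Id gene lay in the upper range. In wild type Id1 was higher than 85.0% of its decile, Id2 than 91.0%, Id3 than 84.0% and Smad6 than 90.2%. In knock-out these were 81.4% for Id1, 93.9% for Id2, 89.2% for Id3 and 88.1% for Smad6. The receptors lay in the lower range, Bmpr2 above 10.4% of its decile in wild type and 14.5% in knock-out, and Bmpr1a above 21.2% and 34.0%. Smad1 sat near the middle, above 43.8% and 48.5%. Relative to the median of its decile, Id1 was higher by 2.202 and Id2 by 1.94 on the log2 scale in wild type, and Bmpr2 stood at -1.07.

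**Figure D3:**
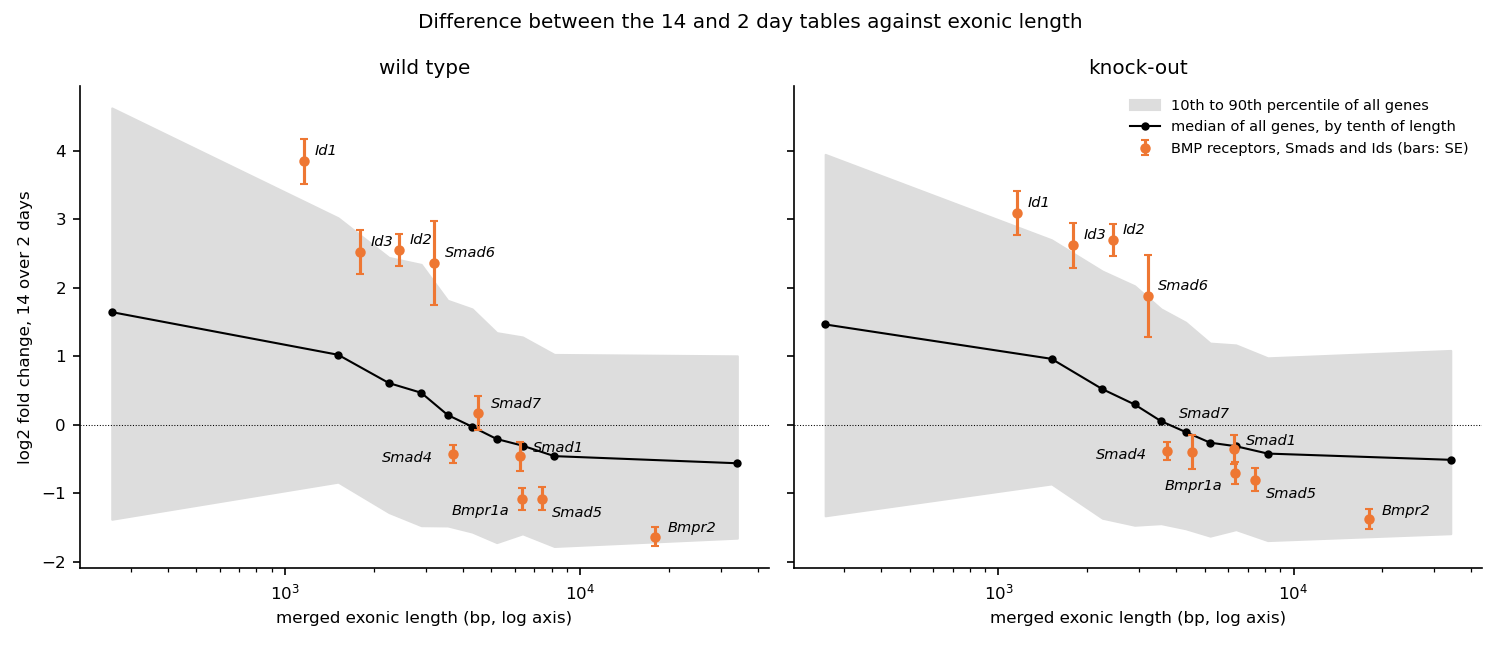
Log2 fold change of 14 over 2 days (vertical axis) against merged exonic length in base pairs (log axis) in wild type and knock-out. Orange points are the 10 genes with standard errors; the black line and grey band are the median and the 10th to 90th percentile of all genes in deciles of length, drawn at the geometric middle of each decile. The line falls from 1.65 to -0.56 in wild type, with Id1, Id2, Id3 and Smad6 above it and Bmpr1a, Bmpr2, Smad4 and Smad5 below it.

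Markers of cell types also moved between the tables. The summed level of 8 stem cell markers was 6001 to 6782 CPM in wild type and 5163 to 6103 CPM in knock-out at 2 days, and 2177 to 2925 CPM and 1945 to 2760 CPM at 14 days, and edgeR called 6 of the 8 lower at 14 days in each genotype, against 25.7% of all genes in wild type and 25.1% in knock-out. The summed level of 7 goblet cell markers was 543 to 787 and 554 to 1467 CPM at 2 days and 1178 to 3988 and 1493 to 10922 CPM at 14 days, and edgeR called 6 of the 7 higher in wild type and 5 in knock-out, against 27.7% and 25.3% of all genes. The 10 enterocyte markers summed to 515 to 747 and 537 to 3509 CPM at 2 days and 619 to 5059 and 519 to 3179 CPM at 14 days, ranges that overlap; 5 of the 10 were called higher in wild type, and 1 higher and 1 lower in knock-out. Of 7 enteroendocrine markers 2 were called higher and 1 lower in wild type and 4 higher in knock-out. The 6 Paneth cell markers summed to 183 to 2833 and 624 to 1769 CPM at 2 days and 1420 to 12119 and 2293 to 3606 CPM at 14 days. These ranges overlap in wild type and not in knock-out. Of the 6, 1 was called higher and 1 lower in wild type, and 2 higher and 1 lower in knock-out. The part of these markers in the difference of the BMP genes was not tested.

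Levels were also divided by merged exonic length in kilobases, a rough scale that counts all annotated exons and not the transcript expressed. Exonic length also moved with the difference between the tables, and its part in the ranks below was not tested. On this scale Smad4 was the highest of the 10 at 2 days. It stood at 39.0 ± 2.04 CPM per kb (SD, n = 4) in wild type and 35.8 ± 4.31 (SD, n = 4) in knock-out. Bmpr1a came next, at 32.4 ± 9.96 and 22.9 ± 1.56 CPM per kb (SD, n = 4 each), a range that in wild type overlaps Smad4 within its SD, and Id3 followed at 22.4 ± 18.1 and 22.6 ± 3.82. At 14 days Id3 led, at 129 ± 15.1 CPM per kb (SD, n = 5) in wild type and 139 ± 23.5 (SD, n = 5) in knock-out, ahead of Id1 at 96.6 ± 10.8 and 86.9 ± 21.3, and Smad4 at 29.1 ± 3.45 and 27.6 ± 2.12. Id2 and Bmpr1a took the next places, with Id2 at 22.9 ± 4.15 and 27.0 ± 4.40 and Bmpr1a at 15.4 ± 1.11 and 14.0 ± 1.60. Smad4 and Id2 did not differ beyond their spread in knock-out. Smad6 was the lowest of the 10 in all 4 groups, from 0.304 ± 0.375 CPM per kb in wild type at 2 days to 1.56 ± 0.385 in wild type at 14 days.

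Whether the response genes varied together between libraries of 1 group was examined with log2 CPM centred on the group means, over all 18 libraries and 10 pairs of Id1, Id2, Id3, Smad6 and Smad7. One pair passed a permutation test within groups with Benjamini-Hochberg adjustment: Id2 and Id3, with Pearson's r of 0.69 (p = 0.00338, adjusted 0.0338) and Spearman's rho of 0.63 (p = 0.00772, adjusted 0.0772). Leaving out the 2 libraries farthest from the median of Id2 gave r = 0.64. Within the tables r was 0.77 over the 8 libraries at 2 days (permutation p = 0.00356, adjusted 0.0356) and 0.47 over the 10 libraries at 14 days (permutation p = 0.165, adjusted 0.412). The adjusted permutation p rose above 0.05 when any 1 of 8 libraries was left out, with r between 0.62 and 0.74 over all 18 such fits: wild-type libraries 1, 2, 3 and 4 and knock-out libraries 3 and 4 at 2 days, wild-type library 5 and knock-out library 1 at 14 days.

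Id1 and Id2 had r = 0.65 and rho = 0.56 (adjusted permutation p of 0.0755 and 0.144), with r of 0.87 at 2 days and -0.02 at 14 days and 0.45 without the 2 farthest libraries. The feedback pair Smad6 and Smad7 had r = 0.66 and rho = 0.61 (adjusted permutation p of 0.0755 and 0.137), with r of 0.73 at 2 days and 0.48 at 14 days. Without the 2 libraries farthest from the median of Smad6, wild-type libraries 1 and 2 at 2 days, r was 0.41. In the other 7 pairs the adjusted permutation p of r was at least 0.257. Id3 and Smad6 had r = -0.60, which rested on wild-type library 1 at 2 days, the highest for Id3 and the lowest for Smad6 in its group; without it r was 0.14.

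**Figure D4:**
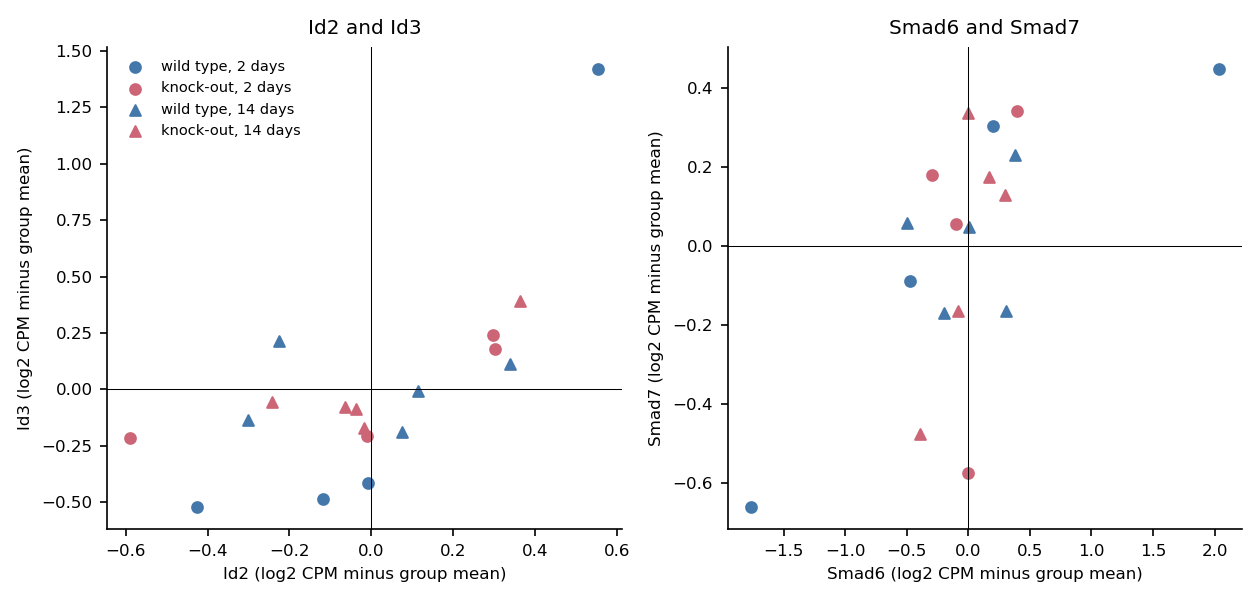
Group-centred log2 CPM of Id2 against Id3 (left) and of Smad6 against Smad7 (right); each point is 1 of 18 libraries, with circles for 2 days, triangles for 14 days, blue for wild type and red for knock-out. Id2 and Id3 (r = 0.69) rise together, with wild-type library 1 at 2 days at the top right; the Smad6 and Smad7 axis (r = 0.66) is stretched by 2 wild-type libraries at 2 days.

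The genes whose group-centred levels were most like the Id genes were sought among 9088 genes over the same 18 libraries, as a description with no test. Nearest to Id1 were Rasl11b (r = 0.84), Mlph (r = 0.82) and Dxo (r = 0.80). Nearest to Id2 were Nfkbia (r = 0.84), the small nucleolar RNA Snord13 (r = 0.80) and Cebpb (r = 0.79), and nearest to Id3 were Cnot4 (r = 0.93), Nfe2l2 (r = 0.93) and Wac (r = 0.91). For Wac and Id3, r was 0.98 at 2 days and 0.37 at 14 days, and for Cebpb and Id2 it was 0.94 and 0.28. With Id3 it was 0.97 and 0.61 for Cnot4 and 0.98 and 0.54 for Nfe2l2. With Id1 it was 0.92 and 0.31 for Dxo and 0.83 and 0.78 for Mlph, and Snord13 and Id2 had 0.89 and 0.58. Wild-type library 1 at 2 days lay 1.42 above its group mean for Id3 on the log2 scale, and no r without it is given here. At 14 days r was 0.81 for Nfkbia and Id2 and 0.77 for Rasl11b and Id1. The libraries of both times had a part in picking these genes, so such values do not test them.

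The rest of the pathway was read from a list of 79 genes. They had 5 roles: ligands, other receptors, antagonists, other Smads with their regulators, and other Id-related or response genes. Between genotypes edgeR, DESeq2 and limma voom called none of them in any comparison, of 45 tested at 2 days, 48 at 14 days and 52 in the joint fit. At 2 days 18 had a log2 fold change above 0 and 27 below 0 (median -0.08), and at 14 days 13 above and 35 below (median -0.08), against a median of 0.01 over all genes at each time. With an unadjusted edgeR p under 0.05 there was 1 gene at each time, against 4.91% and 3.99% of all genes. At 2 days this was Smad2, which carries TGF-beta signals, at -0.35 ± 0.14 (SE) with an edgeR p of 0.0290 and an adjusted p of 0.866. At 14 days it was Nbl1, a BMP antagonist, at -1.19 ± 0.44 (SE) with an adjusted p of 0.957, on 10 to 65 counts per library. Smurf2, a ubiquitin ligase that acts on Smads and receptors, stood at -0.28 ± 0.14 (SE) at 2 days, and Tcf12, a helix-loop-helix partner that Id proteins bind, at -0.29 ± 0.15 (SE).

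Other genes with the smallest p-values of their role at 2 days were the ligand gene Gdf11 (-1.40 ± 0.67, SE) and Bmp1 (-1.12 ± 0.54), a metalloprotease gene that the list holds with the ligands, the receptors Acvr1 (-0.29 ± 0.20) and Tgfbr1 (-0.20 ± 0.18), the extracellular modulator Twsg1 (-0.30 ± 0.18), the pseudoreceptor Bambi (0.53 ± 0.51) and Tcf4 (-0.38 ± 0.22). At 14 days they were Bmp2 (0.42 ± 0.28) and Bmp1 (-0.21 ± 0.41), Tgfbr1 (-0.13 ± 0.20) and Acvr2a (-0.09 ± 0.14), Fstl1 (0.40 ± 0.28), the repressor Skil (-0.23 ± 0.14), Smurf1 (-0.29 ± 0.18), Tcf12 (-0.15 ± 0.13) and Atoh8 (-0.34 ± 0.43). None of these passed the adjusted test.

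Between the tables, 52 genes of the list were tested. The part of exonic length, which moved with the difference between the tables, was not tested for them. In wild type 6 were called higher and 24 lower, against 27.7% and 25.7% of all genes, with a median log2 fold change of -0.57 against 0.12 over all genes, and in knock-out 5 were higher and 25 lower, against 25.3% and 25.1%, with a median of -0.58 against 0.06. Of the ligand genes, Bmp7 fell from 32.1 to 10.4 CPM in wild type (-1.63 ± 0.24, SE) and from 32.8 to 11.1 CPM in knock-out, and Bmp3 from 52.2 to 11.3 CPM and from 35.4 to 10.98 CPM. Bmp2 rose in knock-out, from 2.19 to 5.25 CPM, and had an adjusted p of 0.0643 in wild type.

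Of the other receptors, Acvr1, a further BMP type I receptor, fell from 31.9 to 13.5 CPM in wild type (-1.24 ± 0.22, SE) and from 26.1 to 13.2 CPM in knock-out. Tgfbr2 and Acvr2a fell in both genotypes as well, and the type II receptor Acvr2b rose from 2.99 to 18.1 CPM in wild type (2.61 ± 0.53, SE) and from 3.24 to 16.7 CPM in knock-out. The co-receptor Tgfbr3 was called higher in both but was counted at most 2 times in any library at 2 days and 2 to 17 times at 14 days. Bmpr1b, the other BMP type I receptor of the same family, had at most 6 counts in any library. Of the antagonists, Twsg1 fell from 107 to 31.1 CPM in wild type and from 87.0 to 32.0 CPM in knock-out, and Fstl1 fell in both. Nbl1 and Bambi rose in wild type, Bambi from 2.44 to 6.20 CPM and Nbl1 from 0.370 to 2.68 CPM.

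Of 22 other Smads and Smad regulators tested, edgeR called 13 lower and 0 higher in each genotype, the same 13 genes, where 25.7% of all genes were called lower in wild type and 25.1% in knock-out. With an unadjusted p under 0.05 there were 14 in wild type and 16 in knock-out, and DESeq2 called 12 lower in each, with 1 higher in knock-out. The coactivator Ep300 fell from 356 to 75.0 CPM in wild type (-2.25 ± 0.16, SE) and from 314 to 67.2 CPM in knock-out, and Tob1, which represses Smad activity, from 330 to 106 CPM and from 353 to 94.7 CPM. The ubiquitin ligases Smurf2, Smurf1, Wwp1 and Nedd4l, the phosphatases Ctdsp1, Ctdsp2 and Ppm1a, the repressors Ski and Skil, the anchor protein Zfyve9 and Smad2 made up the rest, at -1.43 for Smurf2 to -0.39 for Ppm1a in wild type. Smad9, which shares the role of Smad1 and Smad5, had 2 to 83 counts per library.

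Among the other Id-related and response genes, the helix-loop-helix genes Tcf3 and Tcf12, whose products Id proteins bind, fell in both genotypes. Tcf3 fell from 88.1 to 25.3 CPM in wild type (-1.80 ± 0.19, SE) and from 79.2 to 22.6 CPM in knock-out. Tcf12 fell from 240 to 123 CPM in wild type and from 196 to 109 CPM in knock-out. Gata4, a transcription factor of the small intestine, fell from 130 to 59.8 CPM in wild type and from 134 to 56.1 CPM in knock-out. Tcf4 fell in wild type (-0.79 ± 0.19), and Atoh8 (-1.22 ± 0.44) and Klf4 (-0.66 ± 0.26) fell in knock-out. Hes1, a Notch target, rose from 141 to 286 CPM in wild type (1.02 ± 0.24) and from 140 to 283 CPM in knock-out. Id4 was called higher in both on at most 5 counts per library at 2 days and 31 at 14 days.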

How the data were processed

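Transcripts of sorted mouse intestinal stem cells were measured by RNA sequencing of poly(A) RNA in 18 libraries. The values the authors deposited are whole-number read counts per Ensembl gene, not normalized, in 1 table per time. The build was GRCm38 and the tools were STAR 2.4.2a and bcl2fastq 2.20.0.422, per the submitters' processing notes; how reads were counted, and on which strand, is not given in the sources used here. The labels name no molecular identifiers, so counts include amplified copies.

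Samples were grouped by genotype and time from the labels. Symbols, coordinates and merged exonic lengths came from GENCODE M21. In no library did identifiers lacking a symbol take over 0.218% of counts. Genes were kept by filterByExpr (minimum count 10), scaled by TMM and tested with edgeR 4.0.16 in R 4.3.3 (quasi-likelihood test), with p-values adjusted by Benjamini-Hochberg over all genes tested and called at an adjusted p under 0.05. Each time was fitted alone; all 18 libraries were fitted together for the averaged effect, its difference and the comparison of times. Standard errors are the absolute log2 fold change over the square root of F. Levels are CPM with TMM factors of the joint fit. Exact two-sided permutation tests used log2(CPM + 0.5); correlations used log2 CPM with a prior count of 2, centred on group means, and 100000 permutations within groups. The smallest exact p was 0.0286 at 2 days and 0.00794 at 14 days. The scripts were tested on simulated data. There, of 100 genes changed by 1 on the log2 scale between genotypes, 23% were called at 2 days and 61% at 14 days. For the averaged effect it was 83%, and for the difference between times 10%. The changed genes were drawn only from those with larger mean counts. In the same run 100 others were changed by 2 on the log2 scale. Recovery may be lower for genes with few counts, such as Smad6 at 2 days, or where few genes change. A gene not called between genotypes may therefore still have changed.

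All 10 genes were given values at 2 days, at 14 days and between the times. For the averaged effect and the difference between times, values are given for some of them only. At each time and between the times, each other pathway gene that was called was named. So were up to 2 per role with the smallest p (average log2 CPM of at least 0). The genes and lists were chosen with earlier results of these data known, and the libraries that stood apart were picked after seeing the data. Alternatives were other scalings, filters, DESeq2 1.42.0, limma 3.58.1 voom, mitochondrial genes left out, each library left out and, chosen after seeing the data, the letter of the 14 day column names as a term. Within a group no pair of libraries held identical values.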

Additional observations from a re-analysis of the deposited data

Results flagged for a closer look

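Of 40 combinations of gene and group, 5 held a highest library whose gap to the next one was large for the range of its group (a gap over range above Dixon's critical value for 4 or 5 libraries). Chance flags about 1 in 20 groups. Wild-type library 1 at 2 days held 2 of the 5, with Smad1 at 190 CPM against 83.1 to 94.7 in the others and Id3 at 88.8 CPM against 23.0 to 24.8. It is the library with the highest mitochondrial share, 49.1%, and its part in these values was not tested. Smad5 was at 77.0 CPM in knock-out library 1 at 2 days against 52.0 to 56.2 in the others. The mitochondrial share of that library was 35.5%, inside the 27.3% to 39.75% of its group. At 14 days Smad1 was at 111 CPM in wild-type library 3, the library with the highest mitochondrial share of its table (26.3%), against 73.0 to 79.6. Id3 was at 324 CPM in knock-out library 1, with a mitochondrial share of 24.2%, against 220 to 238.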

How the results depend on the processing

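No paired analysis was possible because the columns carry no replicate number of the labels. Over all alternatives 1429 fold changes of the 10 genes were recomputed, of which 1375 kept their direction and side of the threshold, 9 lost a call, 3 gained one and 42 changed sign. No gene of the 10 was called between genotypes under any alternative. Without wild-type library 1 at 2 days and knock-out library 5 at 14 days (chosen after seeing the data), the log2 fold change became 0.23 for Smad1 at 2 days, 0.0352 for Smad1 and -0.014 for Smad5 at 14 days, 0.14 for Smad1 and -0.0064 for Smad6 averaged, -0.18 for Smad1, -0.0067 for Id2 and -0.62 for Id3 in the difference, and -0.0070 for Smad7 between times in wild type. With limma voom it became 0.0071 for Smad1 and -0.0003 for Smad5 at 14 days and -0.12 for Id3 in the difference, and with no filter -0.0363 for Smad5 at 14 days. The cause was not tested. With the letter B or J of the 14 day column names as a term (chosen after seeing the data), no genotype result of the 10 genes changed its direction or its side of the threshold.

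Leaving out 1 library at a time gave -0.25 to 0.23 for Smad1, -0.0255 to 0.32 for Id2 and -0.17 to 0.76 for Id3 at 2 days. At 14 days it gave -0.0719 to 0.11 for Smad1, -0.0631 to 0.15 for Smad5, -0.15 to 0.0575 for Smad6 and -0.18 to 0.0233 for Smad7. Averaged, it gave -0.14 to 0.10 for Smad1, -0.021 to 0.86 for Smad6 and -0.033 to 0.44 for Id3. In the difference it gave -0.25 to 0.23 for Smad1, -0.0057 to 0.13 for Smad4, -0.0688 to 0.27 for Id2 and -0.64 to 0.29 for Id3. Between times in wild type it gave -0.0083 to 0.34 for Smad7. Between 0 and 3 of the 10 pairs passed the correlation test. Those r ranged from -0.46 to 0.55 for Id1 and Smad6, -0.17 to 0.55 for Id1 and Smad7, -0.44 to 0.15 for Id2 and Smad6, -0.54 to 0.28 for Id2 and Smad7, -0.72 to 0.14 for Id3 and Smad6, and -0.69 to 0.0307 for Id3 and Smad7.

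Over all genes, the count called between genotypes was 0 at 2 days, 7 with no filter, 11 with DESeq2, 2 in the joint fit and 0 to 1 with 1 library left out. At 14 days it was 0, 2 with no filter, 1 with DESeq2 and 0 with each library left out. Averaged it was 1, 40 with no filter, 7 with DESeq2, 2 without the pair of libraries and 1 to 2 with 1 left out; for the difference it was 0, 98 with no filter, 11 with DESeq2 and 0 to 1. Smad6 had 2 to 47 counts per library at 2 days, which limits its precision there.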
